A study of Mus musculus with 12 samples.

Results

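A set of 10 genes of neuronal microtubules and migration was followed in the external granule layer of the mouse cerebellum: Dcx, Dclk1, Dclk2, Dixdc1, Tubb3, Map1b, Map2, Mapt, Pafah1b1 and Ndel1. The set is a list of gene names, with no threshold on measured values. They are 10 of the 53379 gene rows in each count table, and all 10 passed the filter on low counts that left 13442 genes for testing. RNA sequencing had been done on layer tissue cut by laser microdissection from the central lobules of C57BL/6 mice at postnatal day 6. The conditional SnoN knockout (KO) was compared with control littermates labelled wild type (WT), at 6 libraries a group. SnoN, encoded by Skil, is a transcriptional coregulator of the Ski family. The Cre driver, the deleted exon and the number of animals behind a library are not known from the labels. KO4 and WT2 are described by the submitters as outliers of a robust PCA and were set aside, so the comparison rests on 5 KO libraries (KO2, KO3, KO5, KO6 and KO8) and 5 WT libraries (WT1, WT3, WT5, WT6 and WT7). KO2 is a knockout by its title, but its genotype tag reads wild type.

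Microtubules support the leading process of a migrating neuron and are the tracks along which its nucleus is moved. Doublecortin and its relatives bind and stabilise them, LIS1 (Pafah1b1) and Ndel1 regulate the dynein motor that pulls the nucleus, and Map1b, Map2 and tau (Mapt) bind microtubules of axons and dendrites. In rodent granule neurons SnoN has been described as acting on 2 of the genes in opposite directions. A complex of SnoN with a FOXO factor represses Dcx, and SnoN with p300 induces Dixdc1 (also called Ccd1), a DIX-domain scaffold of Wnt signalling that promotes axon growth.

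Because those 2 genes are the described SnoN targets, the reference DNA at their starts is shown here. Each window runs from 250 bases before to 50 bases after a RefSeq start, on the minus strand of GRCm38.p6, and capitals mark the SMAD-box letters CAGAC, searched on both strands with the reverse complement GTCTG. The overlapping Dcx windows lie at chrX:143933170-143933469 for start 1 and chrX:143933075-143933374 for start 2, and the Dixdc1 windows lie at chr9:50737686-50737985 for start 1 and chr9:50727935-50728234 for start 2.
Dcx start 1: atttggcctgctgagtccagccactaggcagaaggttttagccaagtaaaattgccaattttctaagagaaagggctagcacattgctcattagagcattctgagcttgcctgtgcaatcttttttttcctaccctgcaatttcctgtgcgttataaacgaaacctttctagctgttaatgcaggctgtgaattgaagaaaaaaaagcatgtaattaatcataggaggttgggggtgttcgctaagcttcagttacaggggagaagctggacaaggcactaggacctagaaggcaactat
Dcx start 2: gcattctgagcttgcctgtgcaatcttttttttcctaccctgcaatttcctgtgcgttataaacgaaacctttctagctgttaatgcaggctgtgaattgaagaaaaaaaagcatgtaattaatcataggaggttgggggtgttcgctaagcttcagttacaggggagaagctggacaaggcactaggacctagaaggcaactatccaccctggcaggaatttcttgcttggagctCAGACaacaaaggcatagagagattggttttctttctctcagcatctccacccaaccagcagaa
Dixdc1 start 1: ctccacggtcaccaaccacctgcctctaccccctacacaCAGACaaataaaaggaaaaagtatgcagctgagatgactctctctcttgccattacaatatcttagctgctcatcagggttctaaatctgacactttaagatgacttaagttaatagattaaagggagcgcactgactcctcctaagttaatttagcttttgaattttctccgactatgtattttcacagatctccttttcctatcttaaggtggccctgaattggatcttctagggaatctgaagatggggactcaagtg
Dixdc1 start 2: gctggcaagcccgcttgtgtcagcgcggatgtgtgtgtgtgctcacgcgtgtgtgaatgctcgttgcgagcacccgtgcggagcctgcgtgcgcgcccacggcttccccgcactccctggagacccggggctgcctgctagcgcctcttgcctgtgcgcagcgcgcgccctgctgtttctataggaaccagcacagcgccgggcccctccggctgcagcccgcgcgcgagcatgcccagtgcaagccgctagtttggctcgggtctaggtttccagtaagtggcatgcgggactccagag
The window at Dcx start 1 and that at Dixdc1 start 2 hold no such letters. The G+C content was 43.0% at Dcx start 1, 44.7% at Dcx start 2, 41.7% in the window at Dixdc1 start 1 and 67.7% at Dixdc1 start 2. Of the 10 genes, 9 (all but Mapt) were matched to promoter entries, with 12 windows in all. CAGAC or GTCTG was present in 4 of the 12 windows (1 each of Dcx, Dclk1, Dixdc1 and Tubb3), against 49.6% of 32851 promoter windows of the genome. The FOXO letters GTAAACA or TGTTTAC were present in 0 of the 12, against 3.65% of all windows. The palindrome GTCTAGAC was present in 0 of the 12, against 0.213%. These are matches of letters in 300-base windows and say nothing about binding.

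Library totals ran from 7520076 to 15083086 counts, with 18216 to 20037 genes detected. Skil, the targeted gene, ranged over 20.9 to 36.7 CPM in KO and 38.5 to 57.8 CPM in WT. CPM are counts per 1000000 library counts, scaled by TMM factors that remove composition differences between libraries. The KO and WT libraries did not overlap for Skil, as for 2.35% of all genes tested, and KO4 had 14.0 CPM against 76.5 in WT2. The log2 fold change of Skil, KO over WT, was -0.70. It did not pass edgeR's quasi-likelihood test after Benjamini-Hochberg adjustment (adjusted p = 0.124). The precursor marker Atoh1 was present in every library. It measured 87.1 to 114 CPM in the 5 KO and 75.1 to 115 CPM in the 5 WT libraries. Of 7 mature granule neuron markers, only Gabra6 was under 1 CPM throughout. Together the 7 summed to 40.8 to 65.6 CPM in KO and 38.1 to 66.4 CPM in WT. Slc17a7, also among the 7, was at 19.3 to 45.8 CPM in KO and 23.1 to 45.9 CPM in WT. Before adjustment, edgeR's test gave p under 0.05 for 1 that rose in KO and 1 that fell, among the 4 tested. Summed markers of postmitotic granule neurons of the inner part of the layer spanned 3352 to 6271 CPM in KO and 2839 to 4906 CPM in WT. Neurod1, 1 of them, was alone at 2028 to 4693 CPM in KO and 1498 to 3406 CPM in WT. Of these 10 markers 2 higher and 2 lower ones had an unadjusted p under 0.05, and their median log2 fold change was -0.014. Purkinje cell markers summed to 421 to 676 CPM in KO and 347 to 456 CPM in WT, and 4 of the 9 that were tested had an unadjusted p under 0.05, all higher, against 11.8% of all genes tested. At the same threshold 2 of 10 Bergmann glia and astrocyte markers and 2 of 3 interneuron markers were higher, 1 of those 3 was lower, and 3 of 6 oligodendrocyte markers were lower, against 9.97% of all genes lower. The Purkinje marker Pcp2 was at 14.0 to 24.3 CPM in KO and 10.7 to 21.9 CPM in WT. The part of these cell types in the results was not tested. In bulk tissue, fewer cells of a type and less RNA per cell cannot be told apart.

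Across the 10 genes, 0 passed edgeR's quasi-likelihood test at a Benjamini-Hochberg adjusted p under 0.05, where 0.0223% of all 13442 genes passed. DESeq2 also passed 0 of the 10, against 3.34% of all genes. At an unadjusted p under 0.05, 6 of the 10 were higher in KO (Dcx, Dclk1, Dixdc1, Map1b, Map2 and Pafah1b1) and 1 was lower (Dclk2), against 11.8% of all genes higher and 9.97% lower. The median log2 fold change, KO over WT, was 0.27 for the 10 genes and 0.00133 for all genes tested. For 0 of the 10 did the 5 KO and 5 WT libraries separate without overlap, against 2.35% of all genes. With KO5 left out, edgeR passed 6 genes as higher and 1 as lower, the same 7 named above, against 12.3% and 10.6% of all 13562 genes tested there. Of the 5 KO libraries, KO5 was the lowest for Dcx, Dclk1, Dixdc1, Map2, Pafah1b1 and Ndel1 and the highest for Dclk2. Leaving it out therefore widens these differences. Each of the 10 compared libraries was left out in turn, and KO5 is singled out here and below after seeing the data. The fits without KO5 are thus no independent support. With all 12 libraries, 0 of the 10 passed edgeR's test, against 0.00751% of all genes, and 1 (Map1b, higher) had an unadjusted p under 0.05, against 3.47%. With no filter on low counts, Map2 passed as higher and Dclk2 as lower after adjustment, against 2.29% of genes higher and 1.2% lower.

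**Figure D1:**
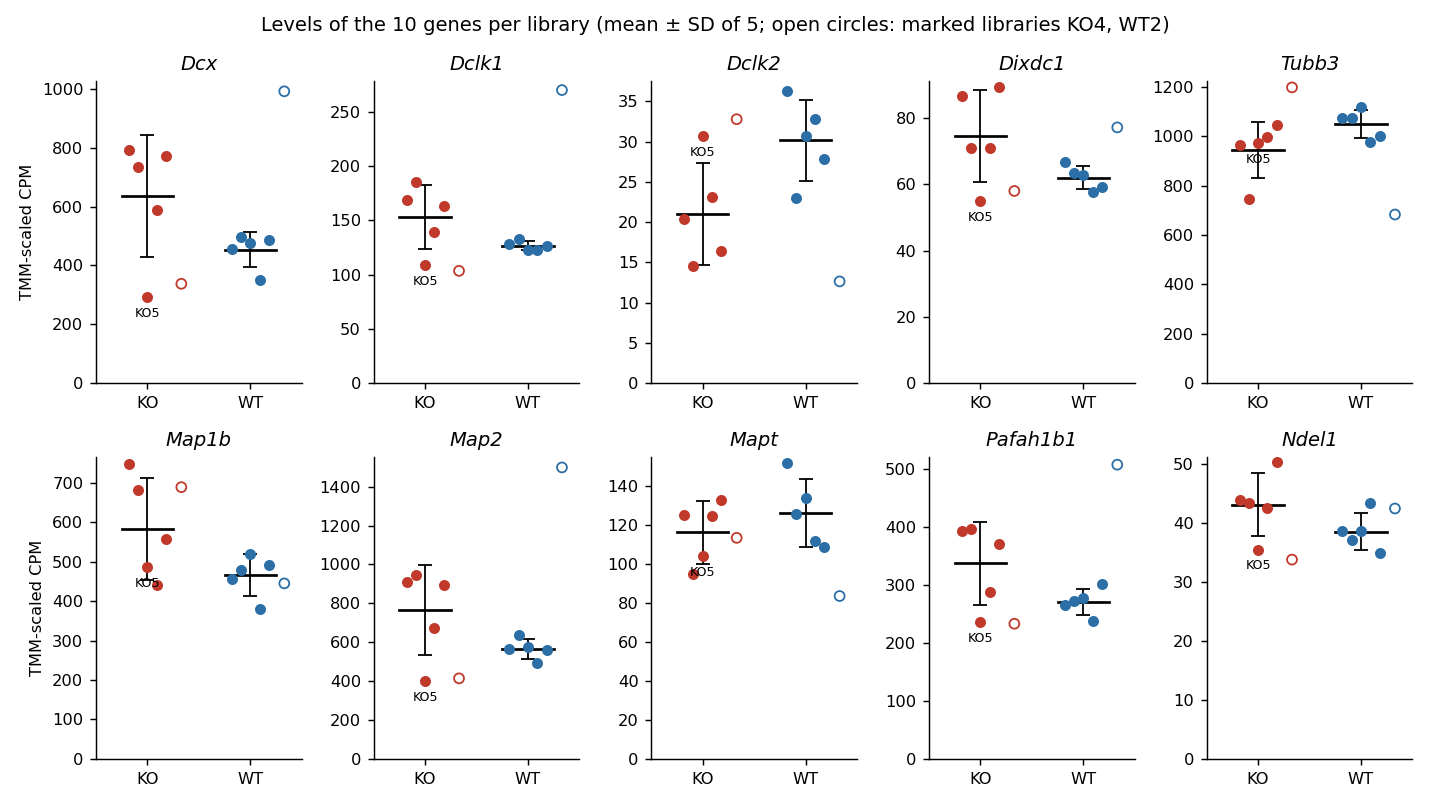
Level of each of the 10 genes in every library, in TMM-scaled CPM on axes of their own, with KO on the left and WT on the right of each panel; bars are means with SD of 5 libraries and open symbols are the marked libraries KO4 and WT2, which are not in the means. For Dcx and Map2, 4 KO libraries lie above all 5 WT libraries and KO5 lies below them.

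Dcx, on the X chromosome at 143855842 to 143933311 of GRCm38 (minus strand), encodes doublecortin, the microtubule-binding protein of migrating and newly differentiating neurons. It measured 792, 735, 292, 589 and 773 CPM in KO2, KO3, KO5, KO6 and KO8, against 455, 496, 476, 350 and 487 CPM in WT1, WT3, WT5, WT6 and WT7. Thus 4 KO libraries exceeded every WT library, while KO5 was below all of them. The means were 636 ± 208 CPM in KO and 453 ± 59.6 CPM in WT (SD, n = 5 each), and the log2 fold change was 0.49 (95% confidence interval 0.06 to 0.92). It did not pass edgeR's quasi-likelihood test after Benjamini-Hochberg adjustment (adjusted p = 0.184), nor a two-sided exact permutation test over libraries (p = 0.198, smallest possible 0.00794). Without KO5 the KO mean was 722 ± 92.1 CPM (SD, n = 4) and the log2 fold change was 0.67 (edgeR adjusted p = 9.1e-04). The marked libraries ran the other way, with 338 CPM in KO4 and 991 CPM in WT2, and with all 12 libraries the log2 fold change was 0.11. Within libraries with high Y-linked counts, Dcx averaged 600 CPM in 3 KO and 482 CPM in 2 WT libraries. In the others it averaged 691 CPM in 2 KO and 434 CPM in 3 WT libraries, so KO was higher on average in each class, and a fit with that class as a covariate gave a log2 fold change of 0.49 (edgeR adjusted p = 0.219).

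Dixdc1, at 50662752 to 50739517 of chromosome 9 (minus strand), measured 86.5, 71.1, 55.0, 70.8 and 89.4 CPM in KO2, KO3, KO5, KO6 and KO8. In WT1, WT3, WT5, WT6 and WT7 it measured 66.7, 63.5, 62.8, 57.8 and 59.3 CPM. As for Dcx, 4 KO libraries were above every WT library and KO5 was below every WT library, with the WT libraries close together. The means were 74.6 ± 13.9 CPM in KO and 62.0 ± 3.53 CPM in WT (SD, n = 5 each). The log2 fold change of 0.27 (95% interval 0.01 to 0.52) did not pass edgeR's test after adjustment (adjusted p = 0.219) or the exact permutation test (p = 0.111). Without KO5 it was 0.36 (edgeR adjusted p = 0.0156). KO4 had 58.0 CPM and WT2 had 77.2 CPM. The mean of Dixdc1, like that of Dcx, was the higher in KO.

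Dclk1 and Dclk2 carry doublecortin domains joined to a kinase domain, and both lie on chromosome 3, at 55242364 to 55539068 (plus strand) and at 86786151 to 86920852 (minus strand). Dclk1 measured 168, 185, 109, 139 and 164 CPM in the KO libraries, in the order KO2, KO3, KO5, KO6 and KO8, against 128, 133, 122, 123 and 126 CPM in WT1, WT3, WT5, WT6 and WT7. Dclk2 measured 20.4, 14.6, 30.7, 23.1 and 16.5 CPM in the KO libraries and 36.4, 23.0, 30.8, 32.8 and 27.9 CPM in the WT libraries, in the same orders. The kinases thus differed in opposite directions: for Dclk1, 4 KO libraries were above all WT libraries and KO5 was below them, and for Dclk2, 3 KO libraries were below all WT libraries, with KO5 among the WT values. Dclk1 averaged 153 ± 29.5 CPM in KO and 127 ± 4.38 CPM in WT (SD, n = 5 each), and its log2 fold change was 0.27 (edgeR adjusted p = 0.202). Dclk2 averaged 21.1 ± 6.33 CPM in KO and 30.2 ± 5.04 CPM in WT (SD, n = 5 each), and its log2 fold change was -0.52 (edgeR adjusted p = 0.146). The exact permutation tests gave p = 0.119 for Dclk1 and p = 0.0476 for Dclk2. Without KO5 the log2 fold changes were 0.37 and -0.70, and each passed edgeR's test (adjusted p = 0.00748 for Dclk1 and 0.00332 for Dclk2). With all 12 libraries Dclk1 was at -0.06 and Dclk2 at -0.25, KO4 and WT2 having 103 and 270 CPM of Dclk1 and 32.8 and 12.6 CPM of Dclk2. Dclk2 had the lowest counts of the 10 genes, 156 to 503 in the 10 compared libraries and 107 in WT2. Some exons of Dclk1 overlap opposite-strand genes, which held 9 counts over all libraries.

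The ratio of the kinases within each library, per kilobase of exon, put the difference on a scale free of library size. It is not free of a library's dependence of level on GC content, described below. The upper gene has the lower GC content in each ratio given here. Dclk1 has 45.2% and Dclk2 53.1%, Dcx 41.6% and Tubb3 58.0%, Map2 44.0% and Mapt 55.4%, and Pafah1b1 41.6% and Ndel1 48.2%. The part of GC content in the ratios was not tested. Dclk1 was at 5.10 times Dclk2 in KO and 2.93 times in WT (geometric means of 5 libraries), a difference of 0.80 on the log2 scale. The KO libraries ranged over 2.45 to 8.76 and the WT libraries over 2.43 to 3.99, so the groups overlapped. The marked libraries went the other way, at 2.18 in KO4 and 14.7 in WT2. Of 4 such ratios compared by exact permutation tests, this had the smallest p (0.0635, adjusted 0.138). Dcx over Tubb3 was 0.0944 in KO and 0.0634 in WT (exact p = 0.103), and Map2 over Mapt was 2.89 in KO and 2.06 in WT (exact p = 0.0873). For these too the marked libraries ran the other way, at 0.0416 in KO4 and 0.214 in WT2 for Dcx over Tubb3, and at 1.67 in KO4 and 8.20 in WT2 for Map2 over Mapt. Pafah1b1 over Ndel1 was 2.61 in KO and 2.38 in WT (exact p = 0.421).

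Map2, the dendritic microtubule-associated protein, lies on chromosome 1 at 66175273 to 66442583 (plus strand). It measured 911, 944, 399, 673 and 895 CPM in KO2, KO3, KO5, KO6 and KO8, against 565, 635, 576, 492 and 561 CPM in WT1, WT3, WT5, WT6 and WT7. The arrangement was that of Dcx, with 4 KO libraries above the WT range and KO5 below it. The means were 765 ± 231 CPM in KO and 566 ± 50.7 CPM in WT (SD, n = 5 each), and the log2 fold change was 0.44 (edgeR adjusted p = 0.179, exact permutation p = 0.151). It was 0.60 without KO5 (edgeR adjusted p = 9.1e-04) and -0.03 with all 12 libraries, where WT2 had 1499 CPM and KO4 414 CPM. An antisense gene, Gm10558, shares exon positions with Map2. The kit does not mark strand, and that gene held 892 counts over all 12 libraries, whereas Map2 had 3979 to 12444 counts in each of the 10.

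Map1b, an early axonal microtubule-associated protein on chromosome 13 at 99421446 to 99516540 (minus strand), measured 747, 683, 485, 441 and 557 CPM in KO2, KO3, KO5, KO6 and KO8. In WT1, WT3, WT5, WT6 and WT7 it measured 455, 480, 520, 380 and 491 CPM. Here KO6 and KO5 lay within the WT range and KO2, KO3 and KO8 lay above it. The means were 583 ± 130 CPM in KO and 465 ± 53.1 CPM in WT (SD, n = 5 each), with a log2 fold change of 0.33 (edgeR adjusted p = 0.187), or 0.38 without KO5 (edgeR adjusted p = 0.0289). Unlike Dcx and Map2, the marked libraries did not go against it: KO4 had 689 CPM, WT2 had 445 CPM, and the log2 fold change with all 12 libraries was 0.38. The exact permutation test gave p = 0.127 for 5 against 5 libraries and p = 0.0411 for 6 against 6, neither adjusted over the genes. For the other genes of the set, the 6 against 6 exact test gave p from 0.318 (Dixdc1) to 0.996 (Map2).

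Mapt, which encodes the axonal protein tau (chromosome 11, 104231390 to 104332090, plus strand), ranged over 94.96 to 133 CPM in KO and 109 to 152 CPM in WT. The groups overlapped widely, and the log2 fold change of -0.12 had a 95% interval of -0.37 to 0.13 (edgeR adjusted p = 0.568). Tubb3, the neuronal beta-tubulin of chromosome 8 (123411424 to 123422015, plus strand), measured 964, 747, 972, 995 and 1044 CPM in KO2, KO3, KO5, KO6 and KO8. In WT1, WT3, WT5, WT6 and WT7 it measured 1074, 1072, 1118, 978 and 1002 CPM. KO3 was far below the other KO libraries, which met the lower WT values. The means were 945 ± 115 CPM in KO and 1049 ± 57.1 CPM in WT (SD, n = 5 each). The log2 fold change was -0.15, with a 95% interval of -0.37 to 0.07 (edgeR adjusted p = 0.411, exact permutation p = 0.0556). Neither Mapt nor Tubb3 passed with KO5 left out.

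Pafah1b1 and Ndel1, the LIS1 subunit and its dynein-binding partner, both lie on the minus strand of chromosome 11, at 74673949 to 74724670 and at 68821434 to 68871858. Pafah1b1 measured 394, 397, 237, 289 and 371 CPM in KO2, KO3, KO5, KO6 and KO8, against 265, 273, 277, 238 and 301 CPM in WT1, WT3, WT5, WT6 and WT7. KO2, KO3 and KO8 were above the WT range, KO6 was inside it and KO5 was just below it. The means were 337 ± 71.4 CPM in KO and 271 ± 22.9 CPM in WT (SD, n = 5 each), and the log2 fold change was 0.32 (edgeR adjusted p = 0.183, exact permutation p = 0.111). Without KO5 it was 0.42 (edgeR adjusted p = 0.00567), and with all 12 libraries it was 0.04. Ndel1 ranged over 35.5 to 50.4 CPM in KO and 34.9 to 43.4 CPM in WT. Its log2 fold change of 0.16 had a 95% interval of -0.08 to 0.40 (edgeR adjusted p = 0.403).

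**Figure D2:**
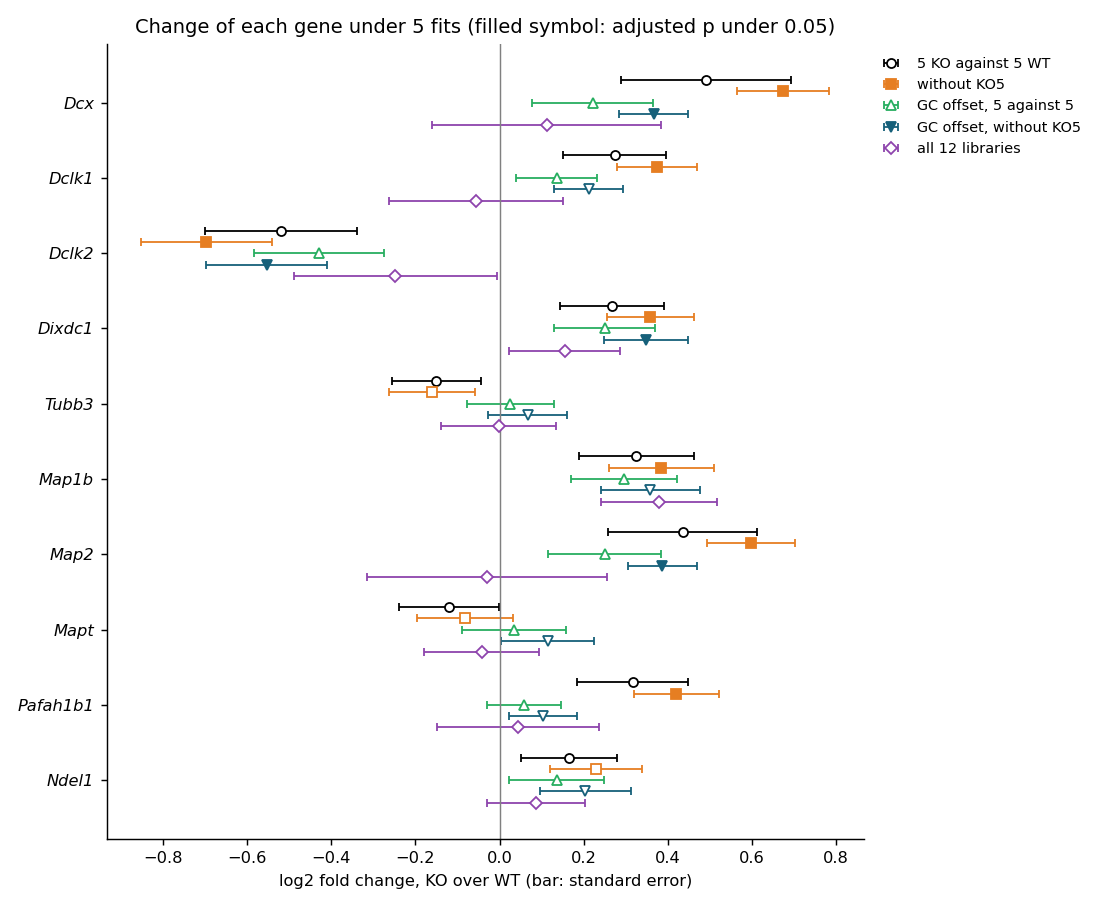
Log2 fold change (KO over WT) of each gene with bars of 1 standard error, from the 5 against 5 libraries and from the same comparison without KO5, with the GC offset, with both and with all 12 libraries; filled symbols mark an edgeR adjusted p under 0.05. Dclk2 is below 0 and Dcx, Dixdc1, Map1b, Pafah1b1 and Ndel1 are above 0 in each of these fits.

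Levels were compared between genes per kilobase of exon. In WT libraries Tubb3 was highest, at 561 ± 30.6 CPM per kb, against 506 ± 61.5 in KO, and it stood far above the other 9 genes in both groups. Then followed Dcx (50.3 ± 16.5 in KO, 35.8 ± 4.71 in WT), Map2 (46.5 ± 14.0 in KO, 34.4 ± 3.08 in WT), Map1b (36.8 ± 8.19 in KO, 29.4 ± 3.35 in WT) and Pafah1b1 (35.1 ± 7.43 in KO, 28.2 ± 2.38 in WT), all CPM per kb (SD, n = 5). The WT ranges of neighbours in this group of 4 overlapped. Within libraries, Dcx was above Map2 in 4 of 5 WT libraries, Map2 above Map1b in 5 of 5 and Map1b above Pafah1b1 in 3 of 5. Mapt (15.5 ± 2.14 in KO, 16.8 ± 2.33 in WT), Ndel1 (13.2 ± 1.63 in KO, 11.8 ± 0.964 in WT), Dclk1 (9.999 ± 1.93 in KO, 8.28 ± 0.286 in WT) and Dixdc1 (7.48 ± 1.39 in KO, 6.22 ± 0.354 in WT) came next, in the same unit. Dclk2 was lowest, at 1.995 ± 0.599 CPM per kb in KO and 2.86 ± 0.477 in WT. The WT ranges from Pafah1b1 down to Dclk2 did not overlap between neighbours. In KO, ranges of neighbours were apart only between Tubb3 and Dcx, Pafah1b1 and Mapt, and Dixdc1 and Dclk2.

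**Figure D3:**
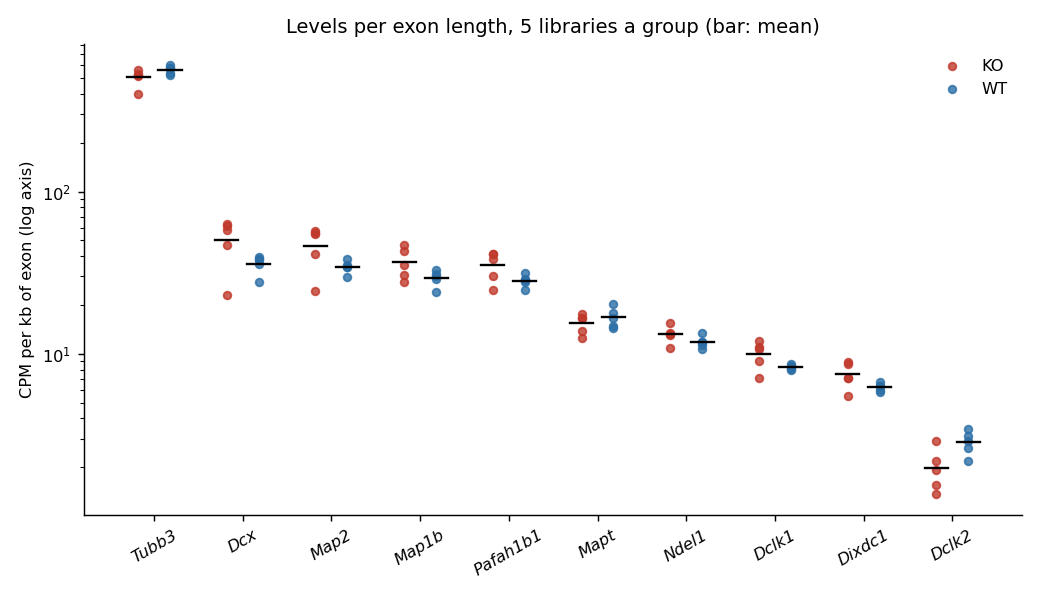
Level of each gene per kilobase of exon (CPM per kb, log axis) in the 5 KO libraries on the left and the 5 WT libraries on the right of each pair, with bars at the means and genes in the order of their WT mean. Tubb3 stands above the rest at 506 in KO and 561 in WT, and Dclk2 is lowest at 1.995 in KO and 2.86 in WT.

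A library's overall dependence of level on GC content moved with these genes. The slope of log2 CPM on transcript GC content was -0.204, -0.221, 0.186, 0.00555 and -0.181 per 10 percentage points in KO2, KO3, KO5, KO6 and KO8, against 0.138, 0.0383, 0.109, 0.272 and 0.136 in WT1, WT3, WT5, WT6 and WT7. KO2, KO3, KO6 and KO8 were below every WT library, KO6 by the least, and KO5 lay within the WT range. In the fits without KO5, the slopes of the KO and WT libraries thus do not overlap. The marked libraries had slopes of 0.182 (KO4) and -0.460 (WT2). Of the genes, Dcx and Pafah1b1 have 41.6% GC, Map2 44.0% and Dclk1 45.2%, whereas Dclk2 has 53.1% and Dixdc1 and Map1b 48.5% and 48.3%. Over the 10 compared libraries, 7 of the 10 genes correlated with the slope after adjustment over the 10 genes (Pearson's r, permutation test). The slope was itself fitted over all genes that passed the filter, these 10 included. The share of all genes that correlate with it is not given, so the 7 cannot be read as particular to this set. For Dcx r was -0.93 (permutation p = 7.0e-05, adjusted 4.4e-04), rho -0.94 (permutation p = 2.3e-04, adjusted 0.00115), and r without the 2 libraries farthest from the median slope -0.90. For Dclk2 r was 0.92 (permutation p = 2.1e-04, adjusted 4.4e-04), rho 0.89 (permutation p = 0.0011, adjusted 0.00244), and r without the 2 farthest 0.91. The others that passed were Dclk1 (r = -0.94), Dixdc1 (r = -0.87), Map1b (r = -0.85), Map2 (r = -0.95) and Pafah1b1 (r = -0.95), while Tubb3 (r = 0.46), Mapt (r = 0.05) and Ndel1 (r = -0.62) did not pass. Because KO2, KO3 and KO8 are separated from the rest, the relation was also computed over the 7 other libraries, a set chosen after seeing the data. There Dcx correlated with the slope at r = -0.82 (exact permutation p = 0.0214, adjusted over 10 genes 0.113). Its Spearman rho was -0.93 (exact p = 0.00675, adjusted 0.0337), and r was -0.74 without the 2 libraries farthest from the median slope. For Dclk2 r was 0.76 (exact p = 0.0427, adjusted 0.113), rho 0.71 (exact p = 0.0881, adjusted 0.176) and r without the 2 farthest 0.70. For Map1b r was -0.45 (exact p = 0.302, adjusted 0.430), rho -0.18 (exact p = 0.713, adjusted 0.792) and r without the 2 farthest -0.07. For Map2 r was -0.79 (exact p = 0.0363, adjusted 0.113), rho -0.93 (exact p = 0.00675, adjusted 0.0337) and r without the 2 farthest -0.85. Over these 7 libraries no r passed after adjustment over the 10 genes, and the rho of Dcx and of Map2 did. The part of GC content in the differences was not tested beyond the offset fits below.

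**Figure D4:**
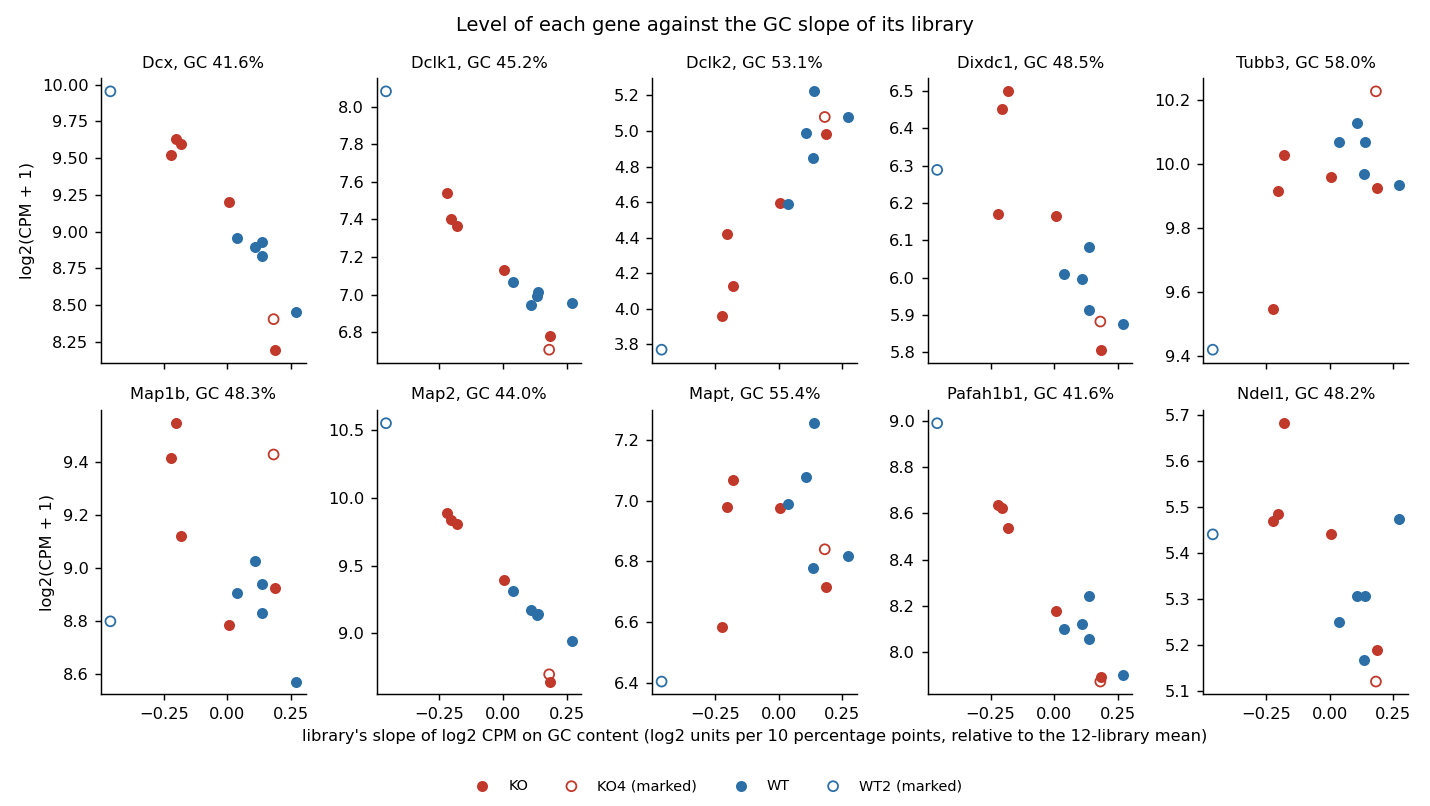
Level of each gene (log2 of CPM plus 1) against the slope of log2 CPM on GC content in its library (log2 units per 10 percentage points, relative to the mean of 12 libraries), 1 point a library, KO in red and WT in blue, with open symbols for KO4 and WT2. KO2, KO3 and KO8 lie between -0.221 and -0.181, apart from the 7 other compared libraries at 0.00555 to 0.272.

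When each library's trend on GC content entered the fit as an offset, 0 of the 10 genes passed edgeR's test after adjustment, against 0.0372% of all genes. At an unadjusted p under 0.05, 2 were higher (Dixdc1 and Map1b) and 1 was lower (Dclk2), against 15.5% of all genes in either direction. The log2 fold change of Pafah1b1 was 0.06 with the offset and that of Dcx 0.22. Those of Dixdc1 (0.25), Map1b (0.30) and Dclk2 (-0.43) moved less. With the offset and without KO5, 3 genes passed edgeR's test as higher: Dcx (0.37, adjusted p = 0.00564), Map2 (0.39, adjusted p = 0.00424) and Dixdc1 (0.35, adjusted p = 0.0237). Dclk2 passed as lower (-0.55, adjusted p = 0.0148), and the shares of all genes passing were 5.86% higher and 5.73% lower.

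The genes also moved with each other from library to library. Over the 10 compared libraries, 28 of the 45 pairs had a positive r and 17 a negative r, and 24 passed a permutation test after adjustment over the 45, 18 of them positive and 6 negative. All 6 negative pairs were with Dclk2. No share for pairs of other genes is given beside these counts, and the r values pool KO and WT. Some passing pairs differed between the groups. Dclk2 and Dixdc1 had r = -0.68 within KO and 0.13 within WT, Map2 and Ndel1 0.86 and -0.70, and Dixdc1 and Ndel1 0.92 and -0.27. Dcx and Map2 had 0.99 within KO and 0.89 within WT. Over the 7 libraries without KO2, KO3 and KO8, 35 pairs had a positive r, and 2 passed after adjustment. In those 7, Dcx and Map2 had r = 0.97 (exact p = 7.94e-04, adjusted 0.0357) and rho = 0.89 (exact p = 0.0123, adjusted 0.256), and r was 0.88 without the 2 libraries farthest from the median of Dcx. Dclk1 and Map2 had r = 0.95 (exact p = 0.00218, adjusted 0.0491) and rho = 0.79 (exact p = 0.0480, adjusted 0.309), with r = 0.74 without the 2 farthest. Neither rho passed after adjustment. Depth and GC slope differ between the libraries. With each library's GC trend taken off, r over the 10 libraries was 0.96 for Dcx and Map2 (0.98 before). It was 0.95 for Dclk1 and Map2 (0.97 before), -0.65 for Dcx and Dclk2 (-0.82 before) and 0.55 for Dcx and Tubb3 (-0.29 before). These adjusted values were not tested, nor was the part of depth.

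Genes with the pattern most like Dcx over the 10 libraries, after each group's mean was taken off, were Strbp (r = 0.996), Dnm1l (r = 0.993) and Rnmt (r = 0.989), among 8930 genes searched. Those most like Dixdc1 were Ppfia2 (r = 0.980), Mapk8 (r = 0.975) and Gprin3 (r = 0.972). These are descriptions over 10 libraries that differ in GC slope and depth. All 6 genes have a GC content of 39.6% to 43.4%.

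The other genes of the same machinery were taken as lists, with the edgeR test over all genes and 0 members called after adjustment in any list. None of 6 other doublecortin-domain genes passed the count filter, the highest being Dcdc2a at 1.87 CPM. Of 24 genes of the LIS1, dynein and dynactin machinery, 1 higher and 7 lower genes had an unadjusted p under 0.05, and the median log2 fold change was -0.11. Dync1h1, the dynein heavy chain, averaged 105 ± 7.01 CPM in KO and 127 ± 5.28 CPM in WT (SD, n = 5 each), without overlap. Dctn1, the large dynactin subunit, averaged 31.4 ± 12.1 CPM in KO and 48.4 ± 9.82 CPM in WT, and Actr1a, the dynactin filament subunit, 201 ± 41.7 CPM in KO and 258 ± 33.2 CPM in WT. In KO4 Dync1h1 was at 182 CPM and in WT2 at 81.2 CPM, and over all 12 libraries its log2 fold change was -0.02.

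Of 14 other tubulins tested, 0 higher and 3 lower genes had an unadjusted p under 0.05, and the median log2 fold change was -0.00741. Tubb4a averaged 48.7 ± 9.68 CPM in KO and 70.9 ± 4.61 CPM in WT (SD, n = 5 each). Its log2 fold change was -0.54 with no overlap of the groups, and KO4 and WT2 had 96.4 and 21.4 CPM. Tubulin genes share long near-identical stretches, so counts can be lost or split among them. Of 28 other microtubule-associated and plus-end proteins, 4 were higher and 3 lower. Cep170, a centrosomal protein, averaged 620 ± 146 CPM in KO and 432 ± 86.1 CPM in WT, and Clip2, a plus-end protein, 25.1 ± 5.51 CPM in KO and 36.7 ± 5.62 CPM in WT. Of 14 severing and minus-end regulators, 4 were higher and 5 lower. Among these Spast, the severing enzyme spastin, averaged 400.1 ± 60.5 CPM in KO and 315 ± 32.1 CPM in WT, and Ttll1, a tubulin-modifying enzyme, 10.9 ± 1.84 CPM in KO and 16.9 ± 0.960 CPM in WT.

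Of 20 kinases, scaffolds and phosphatases that act on doublecortin, tau and related proteins, 1 was higher and 7 were lower, and 16 of the 20 had a negative log2 fold change (median -0.22), as had 6702 of all 13442 genes. Cdk5, a kinase of doublecortin and tau, averaged 45.1 ± 5.27 CPM in KO and 56.2 ± 7.57 CPM in WT. Ppp1r9b, the spinophilin that brings protein phosphatase to doublecortin, averaged 41.2 ± 10.1 CPM in KO and 56.5 ± 4.92 CPM in WT. Of 10 partners of Dixdc1 and Wnt scaffolds, 0 were higher and 2 were lower (median -0.21), namely Dvl2 at 30.4 ± 4.96 CPM in KO and 39.2 ± 7.37 CPM in WT, and Dvl3 at 9.21 ± 4.27 CPM in KO and 13.5 ± 2.54 CPM in WT. Dvl2 and Dvl3 are the Dishevelled proteins with which DIX domains join. Of 12 neuronal kinesins, 3 were higher and 3 lower. Kif21a averaged 43.4 ± 8.19 CPM in KO and 29.1 ± 4.65 CPM in WT, and Kif5b 348 ± 76.6 CPM in KO and 252 ± 35.0 CPM in WT (SD, n = 5 each throughout). Of 14 genes of SnoN and its partners, 4 were higher and 4 lower, the lower ones including the targeted Skil itself. Of the others, Crebbp, a histone acetyltransferase, averaged 126 ± 16.7 CPM in KO and 92.3 ± 18.8 CPM in WT, and Fzr1, the activator of the ubiquitin ligase that degrades SnoN, 56.7 ± 10.7 CPM in KO and 86.4 ± 13.2 CPM in WT. Beside all of these stand the shares of all genes given above, 11.8% higher and 9.97% lower. Of the list genes with means given here, Skil kept its direction in KO4 and WT2 and the others ran the other way. Fzr1 had 86.5 CPM in KO4 and 36.8 in WT2, Dvl2 39.8 and 22.5, and Kif5b 240 and 414. Those lower in KO, Skil (41.6%) apart, had a GC content of 51.9% (Ttll1) to 60.2% (Ppp1r9b). Those higher in KO had 41.0% (Cep170) to 51.0% (Crebbp), and the part of GC content was not tested. The counts depended on the libraries and the GC offset. With all 12 libraries the dynein, tubulin and kinase lists each had 0 higher and 0 lower genes at an unadjusted p under 0.05, with medians of -0.019, -0.023 and -0.081. With the GC offset on 5 against 5 libraries, the dynein list had 0 higher and 4 lower, the tubulins 1 higher and 2 lower, and the kinase list 1 higher and 4 lower. The list of Dixdc1 partners had 1 higher and 0 lower with that offset (median -0.083), against 15.5% of all genes in either direction. With all 12 libraries it had 0 higher and 0 lower (median -0.088), against 3.47% of all genes.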

How the data were processed

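Counts per gene, 1 table per library, were deposited by the authors as raw HTSeq counts, not normalized. The submitters' processing notes name cutadapt 1.16, STAR 2.5.3a, HTSeq 0.6.1, DESeq2 and build mm10, without settings, annotation or strand mode. The 5 summary rows were left out: multiply placed reads were 64.4% to 67.6% of records, and no-feature and ambiguous reads 10.8% to 14.7% and 6.81% to 8.13% of uniquely placed reads. GENCODE M21 (GRCm38) matched 53274 identifiers and gave exon lengths, GC contents and positions; promoter windows are from RefSeq.

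Groups follow the titles, KO2 included. The filter was filterByExpr (minimum count 10) and the scaling TMM. The test was edgeR's quasi-likelihood fit, robust (edgeR 4.0.16, with limma 3.58.1 on R 4.3.3), of 5 against 5 libraries; a gene was called when its Benjamini-Hochberg adjusted p was under 0.05. CPM use TMM factors over all 12 libraries. For single genes and ratios, exact permutation tests (two-sided, scipy 1.17.1) used log2 values, with a pseudocount of 1 CPM for genes. Correlations over 10 libraries used 100000 permutations and those over 7 every ordering.

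The 10 genes, the lists, the tests and the naming rule were chosen with earlier results of these data known. Named were the 10 genes, Skil, up to 3 genes per list by smallest p, and 3 genes most like Dcx and Dixdc1; not all are printed. Alternatives were DESeq2 1.42.0, voom with quality weights, RLE or library-size scaling, other filters, a Y-linked covariate, a GC offset (spline, 5 degrees of freedom), a replicate block, KO2 as wild type, the marked libraries and each library left out. All 30 within-group pairs of libraries differed beyond sampling noise (reduced chi-square 6.51 to 94.1), so none were merged. No label says that libraries came from separate animals, so p-values reflect variation between libraries that may be technical. The procedure was tested on simulated data.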

Additional observations from a re-analysis of the deposited data

Results flagged for a closer look

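Of 20 sets of 5 libraries, 2 held a library far from the others by Dixon's criterion for small samples, and chance flags about 1 in 20. Tubb3 was 747 CPM in KO3, while the other KO libraries lay between 964 and 1044 CPM, a gap of 0.763 of the whole range. Dcx was 350 CPM in WT6, while the other WT libraries lay between 455 and 496 CPM, a gap of 0.751 of the range. WT6 also had the fewest counts, 7520076, and the highest GC slope of the compared libraries, 0.272; their part in its Dcx level was not tested.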

How the results depend on the processing

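Of 35 alternatives per result, the log2 fold changes of Dcx, Dclk2, Dixdc1 and Map1b kept their sign in all. The genes called at 5 against 5 libraries were 2 higher and 1 lower. They became 235 and 214 with DESeq2, 634 and 331 without a count filter (where Map2 was 1 higher gene of the 10 and Dclk2 1 lower), 0 and 0 with KO2 as wild type, and 1 higher with a Y-linked covariate, with KO4 or WT2 added or with all 12 libraries (lower: 0 with KO4, 0 with all 12). With the GC offset 2 were lower, also over all 12. Of the 10 genes, the 6 higher and 1 lower with an unadjusted p under 0.05 became 2 higher with the GC offset and 2 and 2 with library size alone. They became 0 and 0 with KO2 as wild type, and 1 higher and 0 lower with KO4 or WT2 added or all 12 libraries, with or without the offset. The counts over all genes at that p moved too. From 1585 higher and 1340 lower of 13442 they became 1011 and 1076 with the GC offset and 317 and 439 of 13696 with KO2 as wild type. With all 12 libraries they were 255 and 207 of 13318, and 328 and 239 with the offset there. For the other settings they are not given. List members called, 0 in each direction, became 1 higher and 7 lower with DESeq2, 6 and 12 without a filter, and 1 lower, the targeted Skil, with the GC offset, also over all 12. The median of the 10 genes, 0.27, became 0.021 with all 12 libraries and 0.0403 with the GC offset there. The cause of these shifts was not tested.

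Leaving out each library in turn, with and without the GC offset, gave 0 to 1662 genes higher and 0 to 1440 lower, 0 to 6 of the 10 genes called higher and 0 to 1 lower, 0 to 7 higher at p under 0.05 before adjustment and 1 lower, 0 to 16 and 0 to 37 list members, and medians of 0.0902 to 0.37. The highest of these counts of calls came from leaving out KO5. Without KO2, KO3 or KO8 those of the 10 genes higher at p under 0.05 before adjustment were 0, 1 and 1, without WT1 3 and without WT6 0. No share of all genes at that p is given for the fits with a library left out. These counts thus cannot be read as particular to the set.

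Signs turned for Dclk1 (-0.056 with all 12 libraries, -0.079 with the offset), Map2 (-0.030 and -0.052), Tubb3 (0.026 with the GC offset, 0.071 with it over all 12, -0.19 to 0.081 leaving out libraries), Mapt (0.035, 0.034 and -0.17 to 0.11) and Pafah1b1 (-0.018 over all 12 with the offset).

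The shared numbers 3, 5 and 6 did not pair the libraries: their deviations correlated at 0.140, -0.0724 and 0.108, none best with its own number. With the replicate block, 0 genes were called in either direction and Dcx was at 0.21. Of the 10 genes 0 had an unadjusted p under 0.05 there, where 331 of all 13442 genes were higher and 276 lower. With block and GC offset, 0 genes were called and 0 of the 10 had an unadjusted p under 0.05. The median was 0.0400 and Ndel1 was at -0.013. Each of the 10 genes had 156 or more counts in each of the 10 compared libraries.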

Other observations

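The genes differed in how far they ranged over the 10 compared libraries. The highest CPM of Dcx was 2.71 times its lowest, that of Dclk2 2.496 times and that of Map2 2.37 times, whereas Ndel1 spanned 1.44 times, Tubb3 1.497 times and Mapt 1.60 times. For Dcx and Map2 the lowest library was KO5 and the highest were other KO libraries. The WT libraries of Dclk1 lay between 122 and 133 CPM.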
